A study of Saccharomyces cerevisiae with 12 samples.

Results

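Divergent promoters are the stretches of DNA between a pair of neighboring protein-coding genes that are transcribed away from each other, so that a single intergenic space serves both. Here they were examined for SUMO peaks outside the ribosomal protein genes (RPGs). A peak was a member when its summit lay over 30 kb from a chromosome end and over 250 bp from any tRNA or other noncoding gene. The summit also had to lie outside the window from 800 bp upstream to 100 bp downstream of an RPG start codon, and within 500 bp of a start codon of the divergent pair. Of the 3486 peaks in the 6 deposited lists, 244 met this rule, and they fell at 104 distinct promoters. The rule uses positions only, so peak height and presence in other lists were free to vary.

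The series is a SUMO ChIP-seq experiment in budding yeast, in which chromatin was immunoprecipitated with an antibody to Smt3, the yeast SUMO protein. It holds 12 samples, 6 immunoprecipitates and their 6 inputs, in 3 groups of 2 replicates. The groups were W303a cells, called WT, moved from 30 °C to 37 °C for 12 min (WT heat shock), untreated cells of the ubc9-6 strain, and untreated WT cells. All cultures were grown at 30 °C in synthetic complete medium. The ubc9-6 strain carries at the UBC9 locus a repeated copy of a mutant allele of the SUMO-conjugating enzyme, whose activity is reduced, and this group stands for a single strain. W303a is a MATa strain, and its reads were placed on the S288C reference genome.

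SUMO is a small protein that is joined to lysines of other proteins by an enzyme cascade in which Ubc9 is the sole conjugating enzyme, and proteases take it off again. Many of its yeast targets are bound to chromatin, among them transcription factors and subunits of the RNA polymerase machinery. A SUMO peak marks DNA near a sumoylated protein and does not name that protein. At divergent promoters, a peak between the genes could belong to either gene, and the distance of its summit to the nearer start codon is therefore given.

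The lists held 302 and 319 peaks with the heat shock label, 600 and 709 with the ubc9-6 label and 714 and 842 for untreated WT. Fold enrichment, the unit used throughout, is the linear ratio of fragments at a summit to the local background estimated by the peak caller. A count of fragments at each summit was recovered from the deposited fold and p-value, and came out whole (within 0.05) for 244 of the 244 members. Members held 180 to 741 and 202 to 1111 fragments under the ubc9-6 label, and 160 to 1146 and 177 to 2713 in the WT lists. The total read depth of each library was not analysed here. The labels of the non-WT lists are in doubt, because heat-shock genes carried more peaks under the ubc9-6 label than under the heat shock label. Of 40 heat-shock and chaperone genes, 1 and 1 held a summit within 500 bp upstream of the start codon in the lists labelled heat shock, against 15 and 16 under the ubc9-6 label and 11 and 5 in the WT lists. Divergent promoters without such a gene held a member at 0 and 1, 29 and 41, and 64 and 81 promoters in the same order. Under the heat shock label the gene was SBA1, with a peak in all 6 lists (folds 4.96 to 11.5). SSA2, SSB1 and MBF1 had such a summit in a WT list and in neither list labelled ubc9-6. The short codes that the submitters gave the lists also bear on this. The codes of the ubc9-6 label and of untreated WT share their opening letters and differ in the last letter, while the codes of the heat shock label and of untreated WT share the last letter and differ in the one before it. No source used here spells the codes out, and the groups were kept as titled. With the heat shock label, 247 of 264 WT tRNA gene regions and 0 of 58 WT divergent promoter regions kept a peak, and with the ubc9-6 label 259 of 264 and 32 of 58 did. If the labels were exchanged, every direction below would belong to the other condition. The lists are therefore called by their labels, and each direction given for them rests on those labels.

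The promoters that hold the highest WT peaks with a summit well away from both start codons are shown first as sequence. They are 101 bp windows centred on the WT summit, from the R64 reference (sacCer3, RefSeq), read 5′ to 3′ towards the start codon nearest to the summit. Capitals mark matches on either strand to any of the following motifs. These were a TATA element (TATAAA or TATATA), the Reb1 site (TTACCCG), the Gcn4 site (TGACTC), the heat-shock element (TTCNNGAA or GAANNTTC), the Swi4 site (CGCGAAA) and, by name only because of their length, the sites of Rap1 (up to 2 mismatches), Abf1 and the TFIIIC B box. The Gcr1 site (CTTCC) and the stress response element (AGGGG) were searched as well and are left in lower case. The windows are chrII:477193-477293 on the + strand (TKL2-TEF2), chrXIV:174567-174667 on the − strand (NRD1-RAD50), chrV:225531-225631 on the + strand (ARB1-PHM8) and chrII:45127-45227 on the − strand (ROX3-RPL32).
TKL2-TEF2: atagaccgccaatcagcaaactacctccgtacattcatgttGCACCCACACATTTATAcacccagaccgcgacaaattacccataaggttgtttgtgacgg
NRD1-RAD50: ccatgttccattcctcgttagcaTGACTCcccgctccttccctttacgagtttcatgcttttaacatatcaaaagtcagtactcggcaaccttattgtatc
ARB1-PHM8: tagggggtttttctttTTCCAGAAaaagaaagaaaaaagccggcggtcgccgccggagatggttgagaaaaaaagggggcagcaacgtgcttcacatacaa
ROX3-RPL32: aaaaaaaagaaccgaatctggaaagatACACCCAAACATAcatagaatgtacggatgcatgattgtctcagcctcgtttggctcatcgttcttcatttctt

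The TKL2-TEF2 window holds a Rap1 match that overlaps a TATA element read on the other strand, NRD1-RAD50 a Gcn4 match, ARB1-PHM8 a heat-shock element and ROX3-RPL32 a Rap1 match. A match says only that these letters occur there. ROX3-RPL32 is a member at the edge of the rule. Its summit lay 791 and 800 bp from the RPL32 start codon under the ubc9-6 label, where it counted as an RPG peak, and 787 and 801 bp from it in WT replicates 1 and 2, so that only the last passed the 800 bp limit. RPL32 encodes a ribosomal protein, so this promoter is given separately below.

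At 4 further promoters the WT summit lay 112 to 134 bp from a start codon, and the 101 bp printed run from 200 to 100 bp before that codon. They are shown for where TATA elements, which the TATA-binding protein binds, lie relative to high summits. They are chrIV:1135732-1135832 on the + strand (RQC1-SWR1), chrXI:514863-514963 on the + strand (KAE1-GAP1), chrXII:839353-839453 on the − strand (ILV5-ATG33) and chrI:71586-71686 on the + strand (CYC3-CDC19).
RQC1-SWR1: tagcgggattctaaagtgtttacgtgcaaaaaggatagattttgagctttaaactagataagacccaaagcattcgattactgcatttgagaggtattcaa
KAE1-GAP1: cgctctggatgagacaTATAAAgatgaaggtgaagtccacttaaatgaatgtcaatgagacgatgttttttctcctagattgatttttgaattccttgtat
ILV5-ATG33: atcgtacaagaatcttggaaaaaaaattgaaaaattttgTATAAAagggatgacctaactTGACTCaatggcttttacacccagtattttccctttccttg
CYC3-CDC19: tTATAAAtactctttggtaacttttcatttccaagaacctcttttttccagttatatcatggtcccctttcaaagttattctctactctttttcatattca

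GAP1, ILV5 and CDC19 have a TATA element in this window, ILV5 has a Gcn4 match as well, and the window upstream of SWR1 has no capitals. For contrast, the same stretch is shown for the 3 heat-shock gene promoters with the highest mean fold under the ubc9-6 label. These are chrXVI:98725-98825 on the − strand (HSP82-YAR1), chrX:381127-381227 on the + strand (TAD2-KAR2) and chrX:521702-521802 on the − strand (SSC1-TAH11).
HSP82-YAR1: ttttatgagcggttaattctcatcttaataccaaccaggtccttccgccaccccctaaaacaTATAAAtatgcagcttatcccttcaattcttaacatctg
TAD2-KAR2: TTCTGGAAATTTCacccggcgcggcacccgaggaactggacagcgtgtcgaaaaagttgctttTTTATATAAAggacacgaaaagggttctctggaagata
SSC1-TAH11: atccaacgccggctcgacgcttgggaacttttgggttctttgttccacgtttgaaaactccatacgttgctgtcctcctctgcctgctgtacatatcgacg

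HSP82, for the Hsp90 chaperone, and KAR2, for the Hsp70 chaperone of the endoplasmic reticulum, have TATA elements there, and KAR2 also has overlapping heat-shock elements. The window upstream of SSC1, for the mitochondrial Hsp70, has no capitals.

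Members were nearly absent from the lists labelled heat shock, and fewer under the ubc9-6 label than in the WT lists. The lists labelled heat shock held 0 and 1 members, the lists labelled ubc9-6 held 38 and 50, and the WT lists held 71 and 84. No list of either label reached the lower WT count. The mean difference was -33.5 peaks for the ubc9-6 label (44 ± 8.49 against 77.5 ± 9.19, SD, n = 2 each) and -77 peaks for the heat shock label (0.5 ± 0.707 against 77.5 ± 9.19). In the exact two-sided permutation test over lists both gave p = 0.333, the smallest value that 2 lists against 2 allow, so no difference between groups could reach the 0.05 threshold. These p-values measure only the spread between the lists deposited as replicates. Relative to list length, members made up 6.33% and 7.05% of the lists labelled ubc9-6 and 9.94% and 9.98% of the WT lists. When each list was limited to its best 302 peaks by q-value, the difference for the ubc9-6 label was 0.5 peaks (exact permutation p = 1) and that for the heat shock label -1 (exact permutation p = 0.667), with 2 WT regions left. Members rank low by q-value, so this cut removed nearly all of them from the WT lists and those labelled ubc9-6. It therefore cannot show what list length contributes to the difference.

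**Figure D1:**
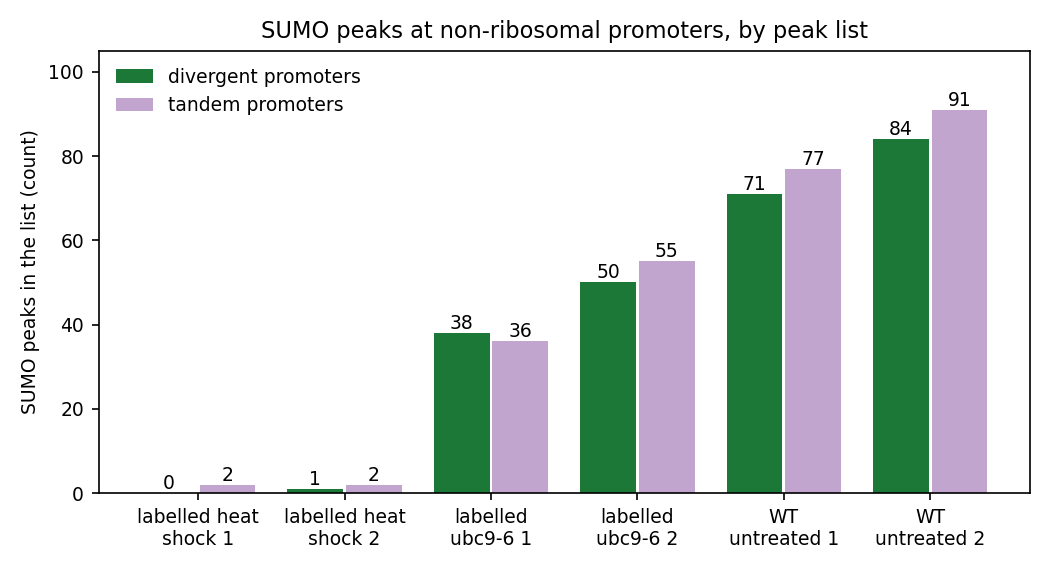
Number of SUMO peaks (y axis, count) at non-ribosomal divergent promoters (green) and tandem promoters (purple) in each of the 6 peak lists. Divergent promoter peaks number 0 and 1 under the heat shock label, 38 and 50 under the ubc9-6 label and 71 and 84 in untreated WT.

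The same order of lists held at tandem promoters, where neighboring genes point the same way: 2 and 2 peaks with the heat shock label, 36 and 55 with the ubc9-6 label and 77 and 91 in WT. Median folds of the promoter kinds lay close together. The median fold at divergent promoters was 1.96 and 2.06 under the ubc9-6 label and 2.07 and 2.23 in the WT lists, against 1.91, 1.94, 2.02 and 2.06 at tandem promoters in the same lists. The within-list difference averaged 0.0992 and was positive in 4 of 4 lists (exact two-sided sign-flip test over lists, p = 0.125, the smallest 4 lists allow). It changed sign to -0.084 (exact sign-flip p = 0.5) among peaks with a -log10 q of 10 or more. Members were low peaks for their lists. Their median fold was 0.383 and 0.342 of the tRNA gene median under the ubc9-6 label and 0.254 and 0.197 of it in the WT lists, and in the WT lists the median member outranked only 22.8% and 30.9% of all peaks by q-value.

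Of the 104 promoters, 58 held a member peak in both WT lists, 38 in a single WT list (12 in replicate 1 and 26 in replicate 2) and 8 in neither. Outside ROX3-RPL32, the 37 single-list promoters were weak, with folds of 1.33 to 2.60 and a median of 1.79. At the 58 promoters found in both, the summits of the WT replicates lay a median of 16.5 bp apart, and 48 lay within 50 bp. WT replicate 2 gave the higher fold at 39 of these 58, with a median ratio to replicate 1 of 1.2 and a range of 0.779 to 1.96. At the limits of the rule, RPI1-RHO3 lay just inside, at 498 bp (fold 1.70 in WT replicate 2), and YBL086C-BOI1 just outside, at 508 to 510 bp (folds 2.00 and 2.15 under the ubc9-6 label and 3.43 in WT replicate 2).

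Peaks of both replicates that overlapped were merged into regions, whose summit is that of the merged peak with the best q-value, member or not. Untreated WT had 58 such regions at divergent promoters. This number is not the same set as the 58 promoters above, since ROX3-RPL32 entered and HTA2-HTB2 dropped out when its peak was merged with a higher one beside it. Of the 1392 divergent spaces in the annotation that could hold a member, 4.17% had a WT region, spread over all 16 nuclear chromosomes. The spaces with a region were long, with a median of 844 bp between the start codons against 499 bp for the 1392. A region was present in 6 of 696 spaces under 500 bp (0.862%), 30 of 481 spaces of 500 bp to under 1000 bp (6.24%) and 22 of 215 longer ones (10.2%).

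The highest member after ROX3-RPL32 was TKL2-TEF2, between genes for a transketolase isoform and for the translation elongation factor EF-1 alpha. Its fold was 5.90 and 7.89 under the ubc9-6 label, against 9.74 and 19.1 in the WT lists, from 741, 1111, 1146 and 2391 fragments. The groups did not overlap, and the WT replicates differed by more than the group means did. RQC1-SWR1, between genes for a ribosome quality control factor and for the ATPase of the SWR1 chromatin remodeler, had folds of 4.93 and 6.60 with the ubc9-6 label and 5.28 and 9.67 in WT, and here the groups overlapped. At CCW12-YLR111W, whose summit lay 84 bp from the start codon of the cell wall protein gene CCW12, the folds were 2.60 and 3.53 with the ubc9-6 label and 6.94 and 6.69 in WT, a clear separation with close WT replicates.

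Several of the next promoters serve amino acid uptake and metabolism or glycolysis. KAE1-GAP1 had its summit 134 bp from GAP1, the general amino acid permease gene, with folds of 2.3 and 3.12 with the ubc9-6 label and 5.05 and 6.03 in WT. ILV5-ATG33 had its summit 112 bp from ILV5, for an enzyme of branched-chain amino acid synthesis, and its folds were 1.96 and 2.08 against 4.33 and 5.28 in WT. This was the lowest ratio of the promoters measured in all 4 lists (log2 -1.25). CYC3-CDC19 had its summit 124 bp from CDC19, the pyruvate kinase gene, with folds of 2.07 and 2.42 with the ubc9-6 label and 4.77 and 4.14 in WT. At all of these promoters both folds labelled ubc9-6 lay below both WT folds.

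The last 5 of the 12 highest WT regions were mixed in function; HTA2-HTB2, whose mean WT fold was higher than these but whose peak was merged with one beside it, is given with the histone genes. YDR524C-B-API2, a space of only 106 bp beside little-studied open reading frames, had a single peak with the ubc9-6 label, in replicate 2 (2.16), and 4.45 and 3.76 in WT. DSE1-RSP5, where DSE1 encodes a daughter-cell protein and RSP5 a ubiquitin ligase, had 2.01 and 2.57 with the ubc9-6 label and 3.08 and 4.98 in WT. NRD1-RAD50, with genes for an RNA-binding termination factor and a DNA repair protein, had 1.96 and 2.83 against 3.74 and 4.11 in WT. ARB1-PHM8, with genes for a ribosome biogenesis ATPase and a phosphatase, had 1.98 and 2.24 against 2.79 and 5.04 in WT. HTB1-HTA1, with genes for histones H2B and H2A, had 1.87 and 2.34 against 3.25 and 4.19 in WT. At each of these 5, every fold labelled ubc9-6 lay below both WT folds. As background, both folds were lower under the ubc9-6 label at 82.6% of the 546 WT regions of any kind with a peak in all 4 lists. ROX3-RPL32 itself had folds of 8.64 and 10.9 with the ubc9-6 label and 11.6 and 21.7 in WT, of which only the last is a member.

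**Figure D2:**
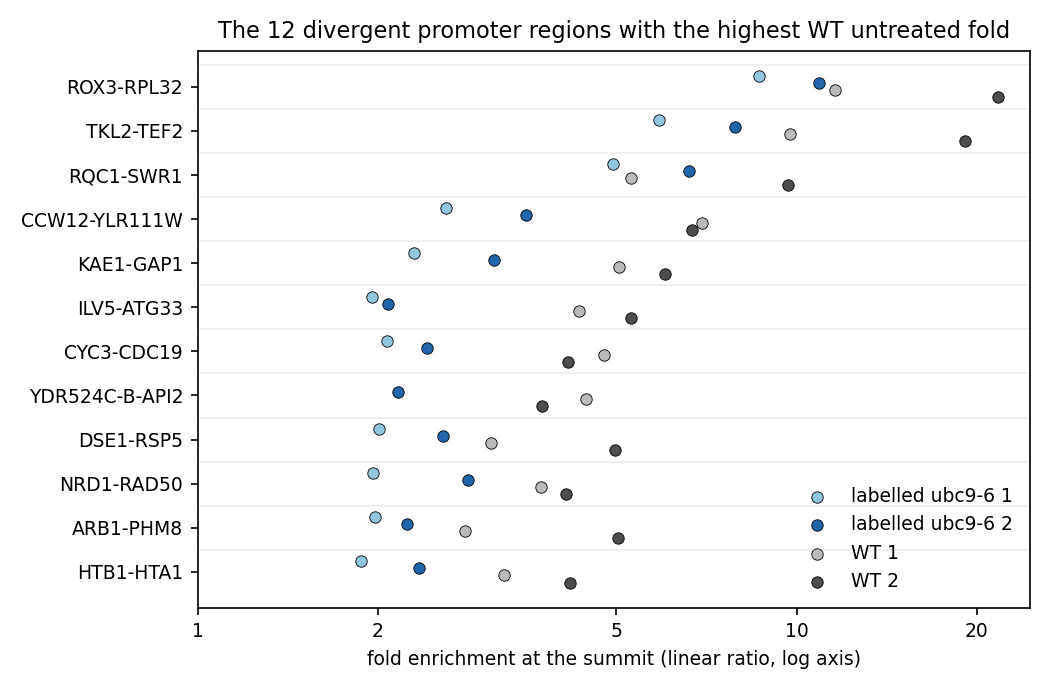
Fold enrichment at the summit (x axis, linear ratio on a log axis) of the 12 WT regions at divergent promoters with the highest mean WT fold (y axis), with 1 point per list. ROX3-RPL32 and TKL2-TEF2 stand above 9 in both WT lists, and at 11 of the 12 promoters each point labelled ubc9-6 lies below both WT points, the exception being RQC1-SWR1.

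The core histone genes, which encode the proteins of the nucleosome and lie in 4 divergent pairs, held members at 4 of 4 pairs in each of the lists labelled ubc9-6 and in each WT list, and WT regions at 3 of 4 (75%). HTA2-HTB2 had folds of 2.41 and 2.60 with the ubc9-6 label and 3.55 and 5.35 in WT, with summits 112 to 140 bp from HTA2. HHF1-HHT1 (histones H4 and H3) had 1.67 and 2.16 against 2.45 and 3.63 in WT, and HHT2-HHF2 had 1.46 and 2.02 against 2.40 and 3.14 in WT. At 4 of 4 pairs both folds labelled ubc9-6 lay below both WT folds, with a median log2 ratio of -0.74. This was near the background of all 546 WT regions with a peak in those lists, where 82.6% lay below and the median log2 ratio was -0.77. A list could hold a summit next to each gene. At HHT2-HHF2, the list labelled ubc9-6, replicate 2, had a peak 30 bp from HHT2 (2.02) and another 58 bp from HHF2 (1.90), and WT replicate 1 had them at 58 bp and 52 bp (2.1 and 2.40). WT replicate 2 had a single peak of 1010 bp over the whole space. The 570 bp between the highest WT summits at this promoter, the largest replicate gap, was the distance between these sites.

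Among the other lists of genes, shares of divergent promoters with a WT region were set against the 4.17% of all such spaces; no test was made, since the lists were chosen with earlier results known. A WT region was present at 4 of 11 promoters of glycolysis and fermentation genes (36.4%), 6 of 18 of cell wall and cell separation genes (33.3%), 3 of 9 of sterol and fatty acid synthesis genes (33.3%) and 3 of 14 of translation factor genes (21.4%). It was present at 3 of 21 of membrane transporter genes (14.3%), 2 of 16 of nucleotide synthesis genes (12.5%) and 3 of 33 of amino acid synthesis genes (9.09%). Genes for general transcription factor subunits had a region at 1 of 25 promoters (4%), MAE1-TFA1, with folds of 2.37 in the list labelled ubc9-6, replicate 2, and 2.09 and 3.47 in WT. In 25 of the 28 regions with a single listed gene, that gene's start codon was the nearer.

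In the SUMO pathway list 0 of 7 divergent promoters had a region, and the only member peak was at GNP1-SMT3 in WT replicate 2 (1.73), 440 bp from SMT3, the SUMO gene itself. No galactose gene promoter could hold a member under the rule. The mating pathway list had WT regions at 3 of 8 promoters, all low. GYP8-STE2, with the summit 85 bp from the gene of the alpha-factor receptor, had no peak with the ubc9-6 label and folds of 2.08 and 2.80 in WT. PEP1-FUS3, with the gene of the mating MAP kinase, had 1.5 in the list labelled ubc9-6, replicate 2, and 1.54 and 1.75 in WT. ERG24-PRM1, with the gene of a membrane fusion protein of mating, had no peak with the ubc9-6 label and folds of 1.37 and 1.69 in WT. A peak at MATALPHA2-MATALPHA1 (1.77, WT replicate 2) lies at a locus that the MATa strain lacks in this form, and its sequence is shared with a silent cassette, so its position is uncertain.

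Summits of the 58 WT regions were measured from the nearer start codon of the pair. That distance is limited by the rule and by the length of the space, and random positions were not compared. The median distance was 174 bp, with quartiles of 86 and 300 bp, 27 regions (46.6%) within 150 bp and 18 (31.0%) over 250 bp, within a rule that allowed up to 500 bp. The 61 tandem WT regions had a median of 182 bp and quartiles of 85 and 287 bp. A TATA element lay within 50 bp of the summit in 19 of the 58 regions (32.8%, 95% Wilson interval 22.1 to 45.6%), in 19 of 61 tandem regions (31.1%) and in 160 of 899 windows of the same length at the midpoints of other divergent promoters of at least 300 bp (17.8%, 15.4 to 20.4%).

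**Figure D3:**
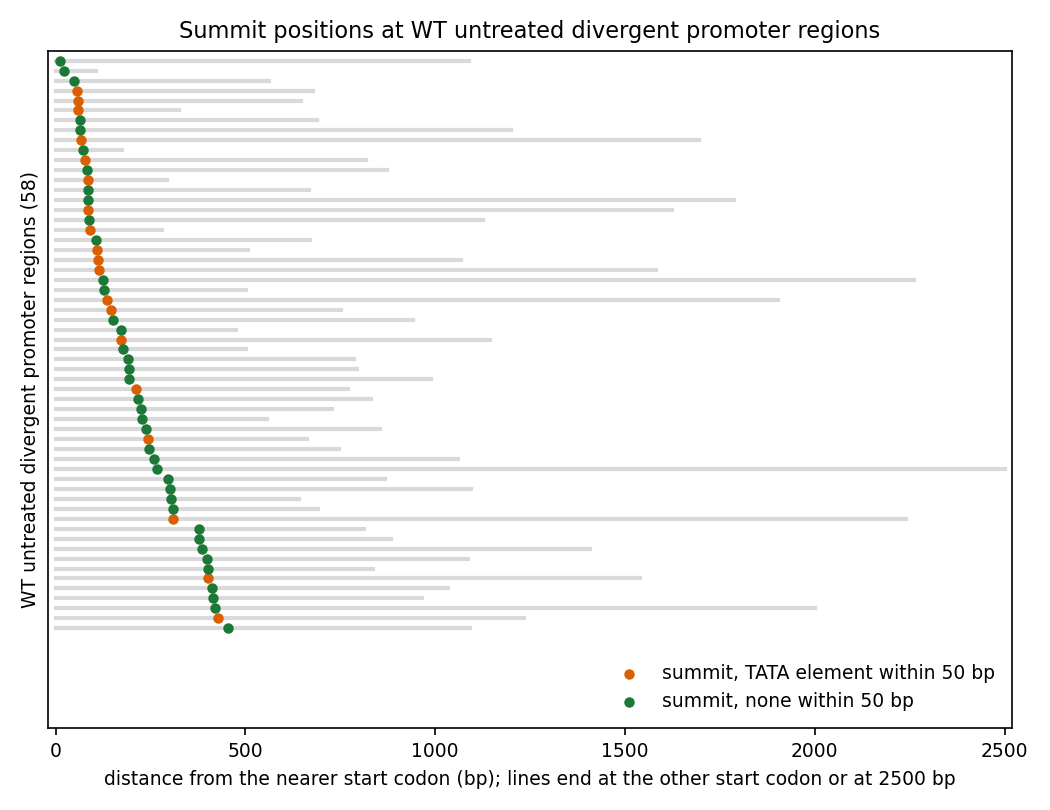
Each line is 1 of the 58 WT untreated divergent promoter regions, drawn from the nearer start codon at 0 to the other start codon (x axis, distance in bp, lines cut at 2500), with the summit as a point that is orange where a TATA element lies within 50 bp. Summits run from 11 to 454 bp, and 13 of the 27 within 150 bp are orange.

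The TATA share followed the distance to the start codon. It was 13 of 27 (48.1%) for summits within 150 bp, 3 of 13 (23.1%) at over 150 and up to 250 bp and 3 of 18 (16.7%) farther out. Windows placed for comparison, after these values were seen, in the other divergent promoters had a TATA element in 30.3% of cases when centred 100 bp from a start codon and in 19.0% at 300 bp. The Rap1 match, a site of the general regulator of RPGs and glycolytic genes, was found beside 6 of 58 divergent summits (10.3%), 7 of 61 tandem summits (11.5%) and 29 of 899 midpoints (3.23%). In the wider window of 150 bp the shares were 12.1%, 21.3% and 9.68%, so the divergent share lay closer to that of midpoints. The 6 within 50 bp were TKL2-TEF2, GLY1-IES6, ACC1-TIM23, EHD3-KRS1, RTC4-TEX1 and ROX3-RPL32, the promoter at the edge of the rule. Of these, 0 had a summit within 150 bp of a start codon. No test was made of any motif share. The Gcr1 site (CTTCC) was beside 24.1% of divergent summits against 17.6% of midpoints, the stress response element (AGGGG) 8.62% against 10.2%, and the heat-shock element 5.17% of divergent summits against 7.01% of midpoints, Abf1 site 5.17% against 5.67%, Gcn4 site 3.45% against 2.78%, Swi4 site 3.45% against 1.33% and Reb1 site 1.72% against 3.78%. The TFIIIC B box, the internal promoter element of tRNA genes, was at 0 of 58 summits and 6 of 899 midpoints (0.667%). The rule leaves out summits within 250 bp of a tRNA gene, so no tRNA gene could supply a match at a summit. The 0 therefore says nothing about these promoters.

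Some members did not stop at the promoter. Peaks of 1 kb or more made up 8 of 38 and 14 of 50 members under the ubc9-6 label (21.1% and 28%) and 1 of 71 and 11 of 84 in the WT lists (1.41% and 13.1%), against 8.33%, 11.3%, 3.50% and 10.1% of all peaks in those lists. The members covered the whole coding region of a flanking gene in 6 and 16 cases with the ubc9-6 label and in 0 and 10 cases in WT. At the glycolytic genes PGK1 (ADP1-PGK1) and ENO2 (YHR173C-ENO2) such peaks were present in both lists labelled ubc9-6 and in WT replicate 2. At CDC19 and TEF2 they were present in replicate 2 of either group and not in replicate 1, so here peak length went with the replicate.

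HSP82 and KAR2 differed from this. With the ubc9-6 label the peak at HSP82 ran from 320 bp before the start codon to 2572 and 2554 bp after it, past the end of the 2130 bp coding region, whereas the WT peak, found in replicate 1 only, ended at 22 bp. At KAR2 the peaks ended 2410 and 2507 bp after the start codon with the ubc9-6 label, past the 2049 bp coding region, and 111 and 83 bp after it in WT. Both lists labelled ubc9-6 thus covered these genes from end to end and neither WT list did.

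**Figure D4:**
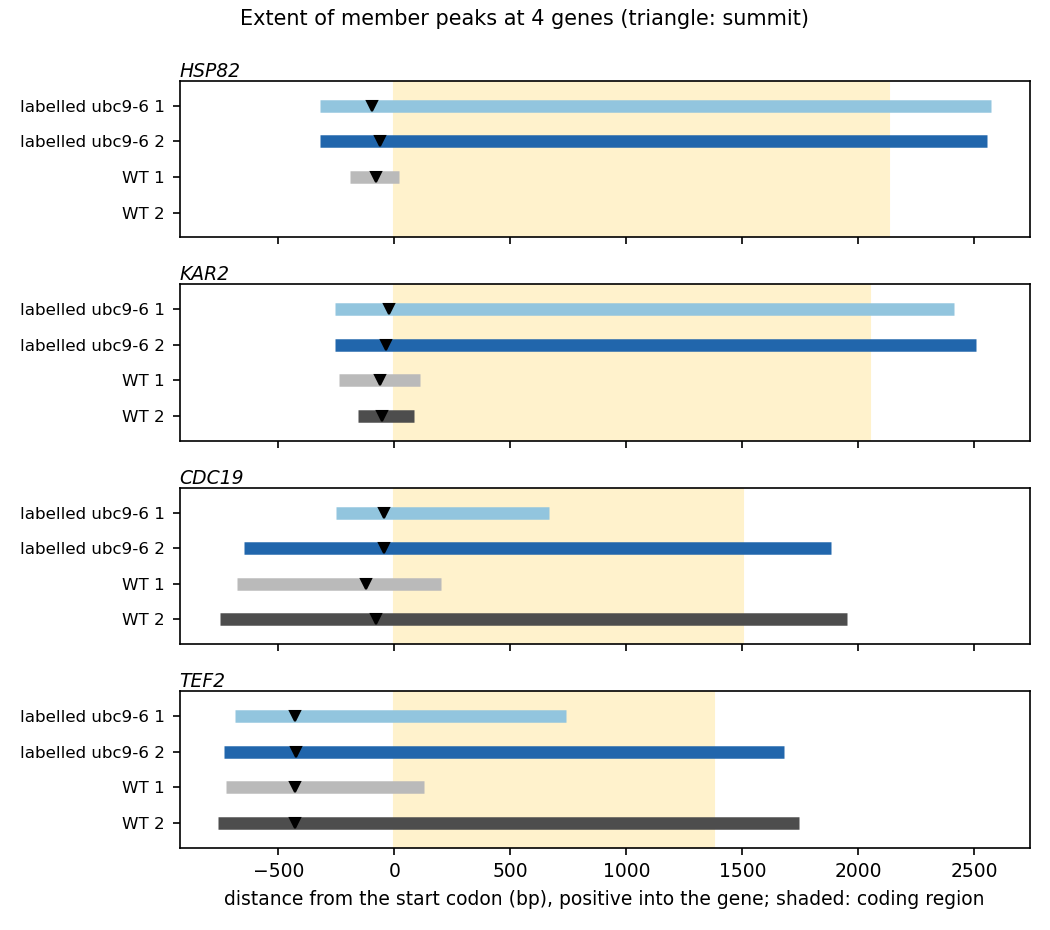
Extent of member peaks (bars) and their summits (triangles) at HSP82, KAR2, CDC19 and TEF2 relative to the start codon (x axis, bp), with the coding region shaded and 1 row per list. The bars labelled ubc9-6 cross the whole of HSP82 and KAR2 while the WT bars end within 111 bp of the start codon, and at CDC19 and TEF2 only the replicate 2 bars cross the gene.

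The next question was which WT promoters kept a peak in the other groups. Regions of the lists labelled heat shock overlapped 0 of the 58 WT divergent regions (Wilson interval 0 to 6.21%), against 39.6% of all 661 WT regions. That background is made up mainly of tRNA genes, at 247 of 264, while 5 of 118 RPG regions and 1 of 61 tandem regions were retained. The only member peak with the heat shock label was at MPD1-YOR289W, beside the gene of a protein disulfide isomerase, with 2.2 in replicate 2, no peak in replicate 1, and 1.51 and 1.93 in WT. This promoter had no peak under the ubc9-6 label.

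With the ubc9-6 label, 32 of the 58 WT divergent regions were retained (55.2%, Wilson interval 42.5 to 67.3%), against 82.6% of all WT regions. The tandem share was 31 of 61 (50.8%, 38.6 to 62.9%), so the intervals of the promoter classes overlap, while tRNA and RPG regions were retained in 259 of 264 and 114 of 118. Counted by member peaks in both lists, the figure was 31 of 58 (53.4%). Retention went with WT height. Of the upper 29 regions by mean WT fold (2.38 and above) 23 were retained, and of the lower 29 (2.36 and below) 9. The median mean WT fold was 3.10 for retained and 2.01 for lost regions. Of the 26 lost, 8 had a peak in a single list labelled ubc9-6 and 18 in neither.

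The 6 highest of these 18 were of modest height. ATG23-IMD3, with its summit 238 bp from IMD3, for an enzyme of GTP synthesis, had folds of 2.94 and 3.11 in WT. VPS25-URA8, with the summit 194 bp from URA8, for CTP synthase, had 2.44 and 2.74. GYP8-STE2 is given above. ATO3-EFT2, 64 bp from EFT2, for elongation factor 2, had 2.46 and 2.26. GID8-GAT2, 171 bp from the gene of a GATA-type factor, had 2.09 and 2.04, and MET6-IES5, 64 bp from MET6, for methionine synthase, had 2.26 and 1.85. The nucleotide synthesis list thus had 0 members with the ubc9-6 label and 2 in each WT list.

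Where a promoter kept its peak, the fold was mostly lower under the ubc9-6 label. Of 31 promoters with a member peak in all 4 lists, 23 had both folds labelled ubc9-6 below both WT folds (74.2%), 2 above (6.45%) and 6 overlapping. Over all 546 WT regions with a peak in those lists, the shares were 82.6% below and 0.916% above. The mean log2 difference over the 31 promoters was -0.53 (mean log2 fold 1.16 against 1.69 in WT; exact two-sided permutation over lists, p = 0.333, the smallest possible). The median was -0.48 at divergent, -0.42 at tandem, -0.81 at tRNA gene, -0.79 at RPG and -0.77 over all shared regions. These medians cover retained regions only and so leave out the 26 divergent regions that were lost, and the classes were not compared. The mean summit positions of the groups lay a median of 28.5 bp apart at these promoters, up to 308 bp, with 20 of 31 within 50 bp. The 308 bp was at HHT2-HHF2, where the highest WT summits lay 570 bp apart beside different genes. Their mean falls between these sites, so it does not measure a shift between groups. Between replicates the median was 15 bp under the ubc9-6 label, with 27 of the 31 within 50 bp, and 16.5 bp over the 58 WT promoters given above.

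The 2 promoters with both folds above WT carry chaperone genes. TAD2-KAR2 had folds of 2.40 and 2.21 with the ubc9-6 label and 1.97 and 1.59 in WT (log2 ratio 0.38), and both folds with the label exceeded both WT folds. SIS1-LST8, with the gene of an Hsp40 co-chaperone, had 1.78 and 1.97 against 1.61 and 1.39 in WT (0.32), again without overlap. YDJ1-MTQ1, with another Hsp40 gene, had 1.94 and 1.72 against 2.03 and 1.58 in WT, which overlap (0.03). TFC3-NUP60, with genes for a TFIIIC subunit and a nuclear pore protein, had 2.12 and 2.78 against 1.88 and 2.87 in WT, which overlap as well (0.06). KAR2, SIS1 and YDJ1 were the only genes of the heat-shock and chaperone list with a divergent promoter measured in all 4 lists. Outside the members, SBA1 of that list had an upstream peak in all 4, and it lay below WT. Its folds were 4.96 and 6.15 under the ubc9-6 label against 8.46 and 11.5 in WT. The 28 divergent promoters without a gene of that list included 0 with both folds above WT and 23 with both below. Among these 23 was PIR5-HSP150, which carries the gene of the cell wall protein Hsp150, annotated as a heat shock protein and placed in the cell wall list, with 2.00 and 2.77 against 2.91 and 3.67 in WT.

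**Figure D5:**
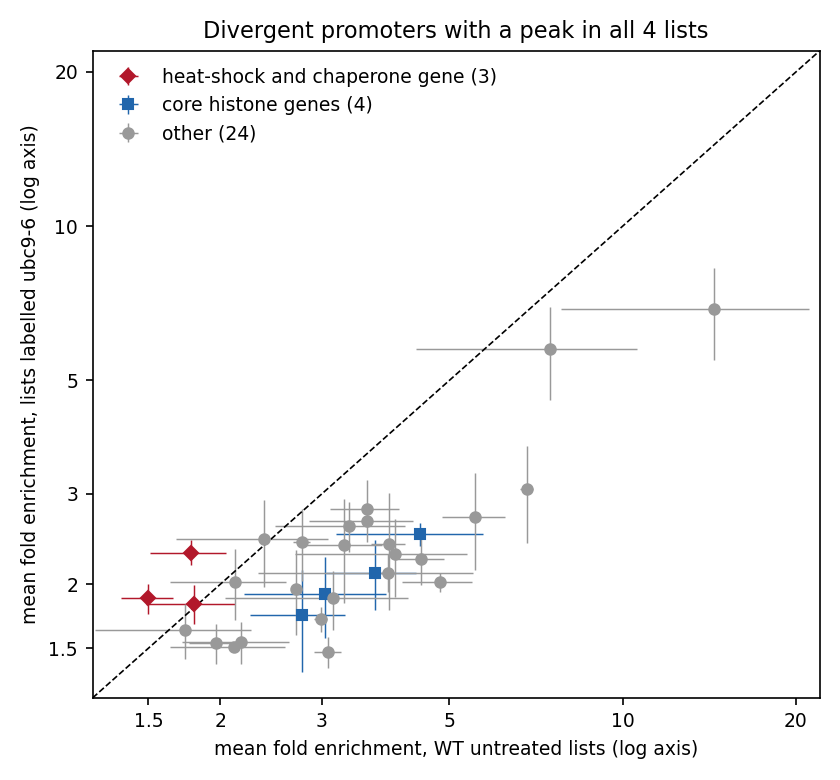
Mean fold enrichment under the ubc9-6 label (y axis) against that in the WT untreated lists (x axis), both log axes, for the 31 divergent promoters with a peak in all 4 lists; bars are SD of 2 lists and the dashed line marks equal folds. The 3 promoters of the heat-shock and chaperone list (red) lie on or above the line, the 4 core histone pairs (blue) below it.

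Regions gained over WT were few at divergent promoters, and both were at genes of the heat-shock and chaperone list. Regions labelled ubc9-6 without a WT region numbered 32 of 580 (5.52%), of which 2 were among the 33 at divergent promoters (6.06%), close to that background, and 6 of 274 (2.19%) with the heat shock label, of which 0 were. HSP82-YAR1 had folds of 3.41 and 3.58 with the ubc9-6 label and 1.92 in WT replicate 1 alone. SSC1-TAH11 had 2.04 and 1.97 with the ubc9-6 label and 1.87 in WT replicate 1 alone. Neither promoter therefore lacked a WT peak entirely, and the count of gained divergent regions was 0 without WT replicate 2, 11 without the ubc9-6 list of replicate 1 and 8 when 50% overlap was required.

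The wider heat-shock list had 14 divergent promoters that could hold a member, and 11 did in some list, against 104 of all 1392 such spaces. A WT region was present at 3 of the 14 (21.4%), against 4.17% of all such spaces. The promoters with a member numbered 0 and 0 in the lists labelled heat shock, 7 and 8 in those labelled ubc9-6 and 6 and 3 in WT. For the promoters without a heat-shock gene the numbers were 0 and 1, 29 and 41, and 64 and 81 in the same order. Among the 104 promoters with a member, 8 had no WT member peak. Of these 8, 5 belonged to this list, each with a member peak in a single list labelled ubc9-6. The list was chosen with earlier results known, and no test was made. SSA1-EFB1 (cytosolic Hsp70) had 3.13 in replicate 1, and there the other list labelled ubc9-6 and both WT lists had peaks over the same space with a summit near a noncoding or tRNA gene. HSP10-MCO10 (1.33 in replicate 1) and HSP60-LCB5 (1.44 in replicate 2) carry the genes of the mitochondrial chaperonin. At HSP10 the list labelled ubc9-6, replicate 2, had a peak whose summit lay in coding sequence (1.38). CPR1-RPA14 (1.52, replicate 2) carries the gene of cyclophilin A and YFL015C-HSP12 (1.83, replicate 2) that of a membrane-protecting stress protein. MBF1-BUD7, with the gene of a transcriptional coactivator, had peaks with a summit in coding sequence under the ubc9-6 label (1.85 and 2.04) and was a member in WT replicate 1 alone (1.93).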

How the data were processed

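SUMO ChIP-seq peak lists of 6 immunoprecipitates were used; the 6 inputs entered only through peak calling. Per the submitters' notes and the methods, the authors aligned paired-end reads with Bowtie2 2.3.5 to sacCer3 and called narrow peaks with MACS2 2.1.1.20160309 for each immunoprecipitate against its input at q 0.05, without pooling replicates. DiffBind 2.10.0, also listed, was not used. The deposited values are fold enrichment (a linear ratio with a pseudocount of 1), p-value and q-value as −log10, and the summit position (a score in bp). How reads with several positions were placed is not given in the sources used here.

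Summits were classed with the RefSeq R64 annotation (6021 protein-coding genes, 137 RPGs, 299 tRNA genes). Regions needed overlapping peaks (1 bp) of both replicates. Retained meant overlap with a region of the other group. Lists were compared by exact permutation. Intervals are 95% Wilson and cover counting error only. Fragments at a summit were solved from fold and p (a recovery tested on simulated data). Motifs were searched on both strands within 50 bp. Tools were Python 3.11.15, NumPy 2.4.6, SciPy 1.17.1 and pandas 2.3.3. The members and gene lists were chosen with earlier results of these data known. Named were the 12 highest WT regions, the 6 highest with no peak labelled ubc9-6, promoters with a region in the lists labelled heat shock, gained promoters and the core histone, heat-shock, mating, galactose and SUMO pathway promoters with any member; others were chosen after their values were seen. Alternatives were a fold of 2, a -log10 q of 10, equal list length, a 300 bp limit, 50% overlap, either replicate, leaving out each list, member peaks, a replicate block and a wider motif window.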

Additional observations from a re-analysis of the deposited data

How the results depend on the processing

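The difference in member number kept its direction under all alternatives for the heat shock label (leaving out a list, -83.5 to -70.5). For the ubc9-6 label it did so except at equal list length (0.5); leaving out a list gave -40 to -27. A fold of 2 or more left 31 WT regions, 11 of them retained under the ubc9-6 label (35.5%), with a median distance of 134 bp. A -log10 q of 10 or more gave 5 gained regions with that label, a distance of 181 bp and a divergent minus tandem difference of -0.084. Equal list length left 2 WT regions, both retained (100%), 1 gained, a distance of 343.5 bp and a TATA share of 50%, and gave no divergent minus tandem value. The 300 bp limit gave 114 bp. With 50% overlap, retention was 41.7%, 8 regions were gained and the distance was 202.5 bp. A peak in either replicate gave 93 WT regions and 6 gained. Within 150 bp of the summit, the TATA share was 75.9%, against 80.3% at tandem regions and 48.2% at the midpoints of other divergent promoters. Leaving out a list gave 58 to 84 WT regions, retention of 39.3 to 67.2% (lowest without WT replicate 1) and 0 to 1.72% for the ubc9-6 and heat shock labels, 0 to 11 gained (0 without WT replicate 2, 11 without the ubc9-6 list of replicate 1), a log2 difference of -0.68 to -0.34, a divergent minus tandem difference of 0.0745 to 0.115, a distance of 171 to 180.5 bp and a TATA share of 29.8 to 36.6%.

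The replicate block changed no value (-33.5 and -77 peaks, log2 -0.53) and gave p = 0.5, the smallest exact value for 2 pairs. Replicate deviations of the groups correlated at 0.377 over 31 promoters and 0.441 over 546 regions, but the labels give the numbers no shared origin. Peak lists hold only what passed the caller's threshold, so an absent peak is a peak not detected at that depth.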
